A study of Mytilus galloprovincialis with 16 samples.

Results

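Of the 1920 cDNA clones on a mussel array, 36 gave a higher signal in the digestive gland of females than of males at stage 2 of gonad development and kept within set bounds at stages 1 and 3. They were chosen from the authors' table of log2 ratios, averaged for each clone over its 2 spots and the 4 arrays of a stage and turned to male over female. A clone was taken where the stage 2 mean was -0.45 or lower, the stage 1 mean lay between -0.4 and 0.7 and the stage 3 mean lay between -0.5 and 0.7. The ratios of stages 1, 2 and 3 therefore chose the clones, and every count for those stages, calls of a fit over all clones included, is a description that tests nothing about them. Stage 4 took no part in the choice. The clones are known here only by their identifiers, none of which was found in the RefSeq gene table of the species, so that no gene, function or sequence is attached to them. For the same reason the labelled tissue could not be checked against marker genes.

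The study compared single males with single females of Mytilus galloprovincialis, the Mediterranean mussel, taken from Bizerta Lagoon in Tunisia. On each of 16 arrays, total RNA from the digestive gland of 1 male and of 1 female of the same stage was labelled with different dyes, Cy3 or Cy5, and hybridised together, with 4 arrays for each of 4 stages. The study names the stages early (November), development (January), ripe (February) and spawning (March), so that stage and month cannot be told apart, and the labels give stage 2 another year than the study does. No treatment, strain or age of the animals was given.

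The sexes of this mussel are separate and its gametes ripen in a yearly cycle, mostly in the mantle. The digestive gland is the main organ of digestion and of intracellular nutrient uptake, and it holds reserves that can be mobilised while the gonad grows. A sex ratio measured there therefore compares tissue that both sexes share. In bulk tissue, fewer cells of a type and less RNA per cell cannot be told apart.

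Some arrays stood apart or ran against each other. In stage 4, the variance of the difference between replicates 2 and 4 was 0.492 times that expected from duplicate spots, and both were counted as 1 sample, which left 15 replicates. At stage 2, males carried Cy5 on replicates 1 and 2 and Cy3 on replicates 3 and 4. Over all clones the ratios of stage 2 arrays correlated at r = 0.652 to 0.673 within a dye orientation and at r = -0.08 to 0.24 across orientations. Stage 1 and stage 2 ratios ran in opposite directions in 16 of 16 pairs of arrays (r = -0.57 to -0.06). The labels state the dyes of every sample, and the direction was kept as they give it. Duplicate spots correlated at r = 0.436 to 0.930, and 28.7% to 56.7% of clone spots were above background, taken as 2 background SDs over the local background, in a channel.

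The pattern that named these clones was a dip at stage 2. From the scanner intensities, the median log2 ratio of male over female signal across the 36 clones was 0.29, -0.60, 0.02 and 0.05 in the order of the stages (SD of the replicate medians 0.18, 0.47, 0.04 and 0.03, n = 4, 4, 4 and 3). Over all 1920 clones these medians were -0.02, 0.04, 0.01 and -0.02. In these ratios stage 2 was the lowest of the 4 stages in 36 of 36 clones, and stage 1 was the highest in 22. In the value table Myt01-001D01, below 0 at all 4 stages, was lower at stage 4 (-0.486) than at stage 2 (-0.470). That table counts stage 4 replicates 2 and 4 separately. In the scanner ratios, with both counted as 1 sample, the clone was at -0.26 at stage 4 and -0.50 at stage 2.

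The dip was deeper on the arrays with males in Cy5. The median of the 36 clones was -0.79 and -1.22 on stage 2 replicates 1 and 2, and -0.28 and -0.22 on replicates 3 and 4. On the other arrays it lay between -0.03 and 0.48. The stage 1 medians were 0.07, 0.25, 0.13 and 0.48 on replicates 1 to 4, the stage 3 medians -0.03, 0.05, 0.01 and 0.04, and the stage 4 medians 0.05 on replicate 1, 0.09 on the average of replicates 2 and 4, and 0.11 on replicate 3. All 4 stage 2 medians thus lay below those of every other array. The number of the clones with a ratio below 0 was 36 on both Cy5-male arrays, 28 on replicate 3 and 31 on replicate 4.

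**Figure D1:**
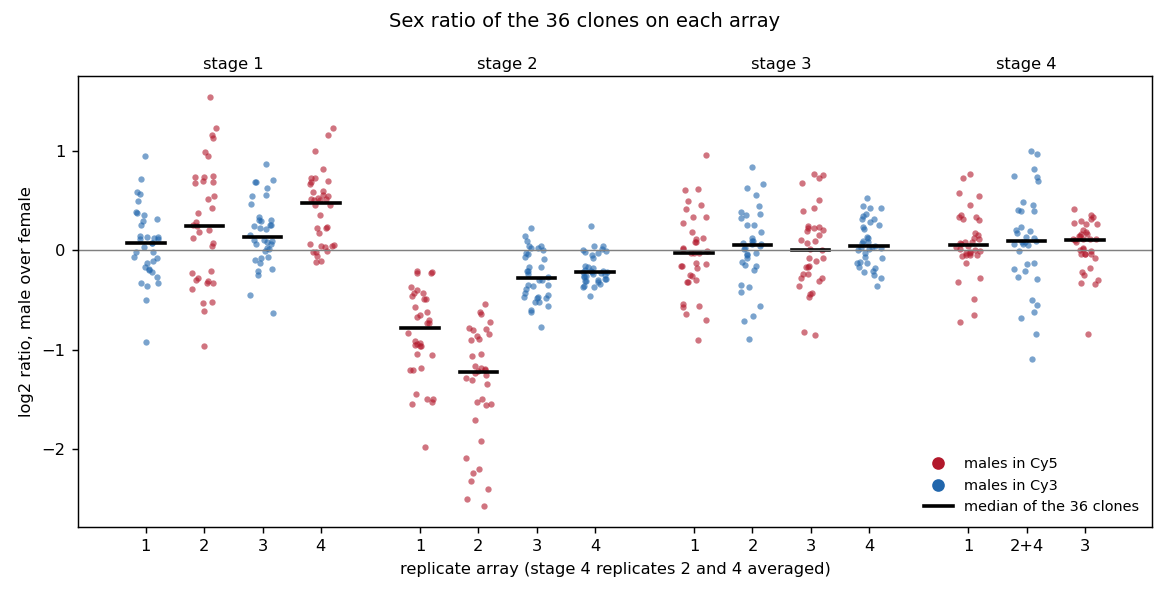
Log2 ratio of male over female signal (vertical axis) of the 36 clones on each of 15 replicates (horizontal axis), with 1 point per clone, the median as a black bar and the colour giving the dye of the males. Medians of the stage 2 arrays were -0.79 and -1.22 with males in Cy5, and -0.28 and -0.22 with males in Cy3.

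Averaged within an orientation, the median stage 2 ratio of the 36 clones was -1.01 with males in Cy5 and -0.25 with males in Cy3. It was lower with males in Cy5 in 36 of 36 clones and below 0 with males in Cy3 in 32. A value of -0.45 or lower was reached by 36 of 36 on the Cy5-male arrays (10.4% of all clones) and by 4 of 36 on the Cy3-male arrays (1.77% of all clones). The lowest of the 4 stage 2 ratios came from replicate 2 in 27 clones and from replicate 1 in 9. Each orientation held other animals, so that dye and animal cannot be told apart.

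**Figure D2:**
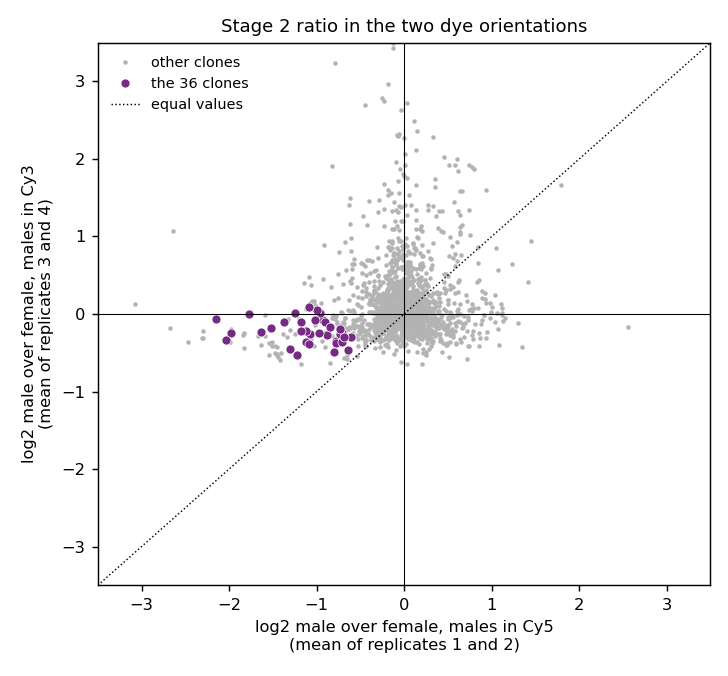
Stage 2 log2 ratio of male over female signal with males in Cy5 (horizontal axis, mean of replicates 1 and 2) against that with males in Cy3 (vertical axis, mean of replicates 3 and 4), with 1 point per clone. The 36 clones (purple) all lie above the line of equal values, with medians of -1.01 and -0.25.

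The ratio was below 0 on all 4 stage 2 arrays in 25 of the 36 clones (12% of all clones), on 3 arrays in 9 and on 2 arrays in 2. All 4 stage 2 ratios lay below every ratio of the other stages in 8 of them (3.44% of all clones), namely Myt01-006E09, Myt01-012A08, Myt01-013F06, Myt01-013G04, Myt01-015B10, Myt01-015E08, Myt01-016A12 and Myt01-016F11. These counts use the contrast that chose the clones.

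The membership followed the same arrays. The rule gave 14 clones without stage 2 replicate 2, all among the 36, and 44 without replicate 1, of which 27 were among them. Without replicate 3 or without replicate 4 it gave 62, with all 36 among them. On the Cy5-male arrays alone it gave 102 clones with all 36 among them, and on the Cy3-male arrays alone 16 clones, 4 of them among the 36. Spot 1 alone and spot 2 alone each gave 36 clones, sharing 29 and 32 with the list.

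The threshold had no gap around it. Just inside, the stage 2 means of the value table were -0.454 in Myt01-013D01, -0.459 in Myt01-017C08 and -0.461 in Myt01-010B03. Just outside, they were -0.447 in Myt01-012H08, -0.441 in Myt01-011C11 and -0.441 in Myt01-017H03. In all, 96 clones reached the stage 2 bound. Of the 60 left out, 56 had a stage 1 mean of 0.7 or higher, 35 a stage 3 mean of 0.7 or higher (32 had both) and 2 a stage 1 mean of -0.4 or lower. Of the clones taken, Myt01-006E09 (0.675) and Myt01-018A07 (0.667) lay closest to the upper stage 1 limit, and Myt01-016F04 (-0.469) lay closest to the lower stage 3 limit.

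The signals of both sexes, set on 1 scale across arrays, were then read apart. Each was computed from the mean signal and the ratio of a clone. Both signals therefore hold the ratio that chose the clones, and the values and counts below are descriptions. The median female log2 signal of the 36 clones was 7.11, 8.02, 7.27 and 7.54 in the order of the stages (SD of the replicate medians 0.29, 0.24, 0.21 and 0.04). The median male log2 signal was 7.48, 7.43, 7.32 and 7.55 (SD 0.07, 0.29, 0.22 and 0.20). The female medians of the 4 stage 2 arrays, 8.25, 8.23, 8.08 and 7.72, all exceeded those of the other stages, which lay between 6.91 and 7.59. The male medians of stage 2 were 7.57, 6.99, 7.63 and 7.50 and overlapped those of the other stages, 7.16 to 7.81, except on replicate 2, which was the lowest of all.

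**Figure D3:**
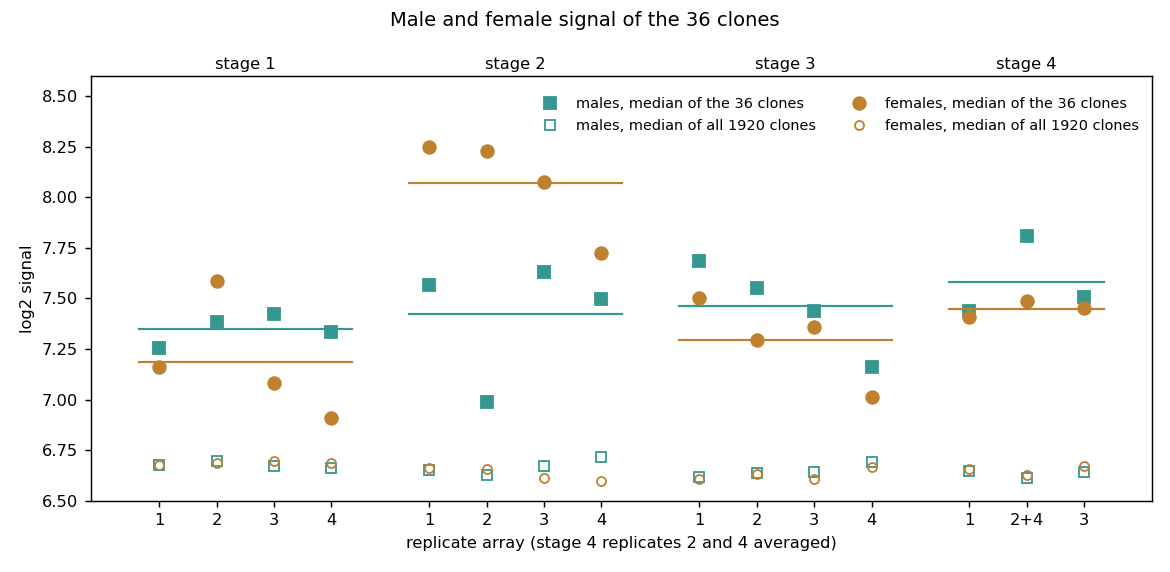
Median log2 signal of males (squares) and females (circles) on each of 15 replicates, over the 36 clones (filled) and over all 1920 clones (open), with lines at the mean of the array medians of a stage. The filled female medians of stage 2, 7.72 to 8.25, lie above those of every other stage, whereas the male medians overlap.

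Against the mean of the other 3 stages, the female signal at stage 2 differed by a median of 0.61 on the log2 scale and was higher in 34 of 36 clones (median over all clones -0.07). The male signal differed by a median of -0.10, being lower in 23 clones and higher in 13 (all clones -0.01). The female signal was higher and the male signal lower in 21 clones, both were higher in 13, and both were lower in Myt01-001D01 and Myt01-017C08. These counts include signals that were not above background. The female difference was the larger in size in 33 clones. The female signal was at its highest at stage 2 in 30 clones, whereas the male signal was at its lowest there in 13.

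Split by dye, the female signal differed from the other stages by a median of 0.96 with males in Cy5, being higher in 36 clones, and by 0.45 with males in Cy3, being higher in 31. The male signal differed by a median of -0.28 with males in Cy5, being lower in 26 clones, and by 0.16 with males in Cy3, being lower in 12. The median of the female side was thus above the other stages in both orientations, whereas that of the male side changed sign between them. Since the rule chose a low stage 2 ratio, a high female or low male signal there is partly built in. All 4 female signals of stage 2 exceeded every female signal of the other stages in 6 clones (3.75% of all clones), Myt01-006F05, Myt01-013G04, Myt01-014H10, Myt01-016F11, Myt01-016H12 and Myt01-018A03. All 4 male signals of stage 2 lay below every other male signal in none of them (0.417% of all clones).

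**Figure D4:**
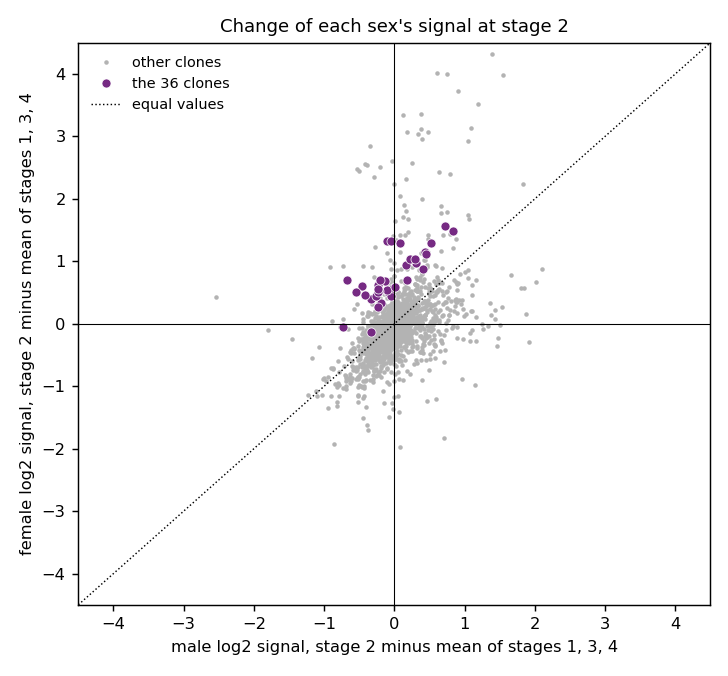
Difference of the male log2 signal (horizontal axis) and of the female log2 signal (vertical axis) at stage 2 from the mean of stages 1, 3 and 4, with 1 point per clone. The 36 clones (purple) lie above the line of equal values, with a female median of 0.61 and a male median of -0.10.

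The deepest ratios belonged to clones with the widest spread between arrays. Myt01-015H01 had log2 ratios of -1.50, -2.58, -0.36 and -0.32 on stage 2 replicates 1 to 4 (mean -1.19, SD 1.08, 2.28-fold higher in females). Its female signals there were 10.23, 10.25, 9.85 and 9.87 and its male signals 8.73, 7.68, 9.49 and 9.56. The females were even across the 4 arrays, and the males were low on replicates 1 and 2, the arrays with males in Cy5.

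Its neighbour on the clone plate, Myt01-015G01, gave -1.55, -2.41, -0.21 and -0.29 (mean -1.11, SD 1.06). The male signals were again lower on the Cy5-male arrays, at 8.22 and 8.09 against 9.23 and 9.16, and the female signals were 9.77, 10.49, 9.44 and 9.45. Both clones varied almost together, with r = 0.975 over 15 replicates and r = 0.880 over the 11 replicates outside stage 2. These correlations are descriptions over arrays that all clones share.

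Myt01-013F06 gave -1.98, -2.33, -0.09 and -0.05 (mean -1.11, SD 1.21). Here it was the female signal that differed between arrays, at 9.42 and 9.39 on replicates 1 and 2 against 7.35 and 7.43 on replicates 3 and 4, while the male signals were 7.44, 7.07, 7.26 and 7.38. Female signals of the other stages lay between 6.72 and 7.71. The females on replicates 1 and 2 thus stood above every other female, and those on replicates 3 and 4 did not.

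Myt01-006E09 had the highest mean signal of the 36 clones. Its stage 2 ratios were -0.36, -2.25, -0.56 and -0.36 (mean -0.88, SD 0.91), with female signals of 10.80, 11.73, 11.30 and 11.62 and male signals of 10.44, 9.48, 10.74 and 11.26. Replicate 2 stood apart through a low male and a high female signal, and the other 3 ratios were close together. All of its stage 1 ratios were above 0, at 0.36, 0.75, 0.71 and 0.70.

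Replicate 2 was also the lowest in the other clones of high signal. Myt01-006B11 gave -1.18, -2.09, -0.24 and -0.22 at stage 2, Myt01-017B10 gave -0.84, -2.20, 0.01 and -0.37, and Myt01-018A07 gave -0.43, -1.92, -0.43 and -0.01. Myt01-016G09 gave -1.04, -2.50, 0.02 and -0.02, so that with males in Cy3 its mean ratio was 0 to 2 decimals. Its stage 3 ratios, -0.57, -0.71, -0.44 and 0.35, were also below 0 on 3 of 4 arrays.

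Some of the lowest clones were more even between arrays. Myt01-009H08 gave ratios of -1.20, -1.26, -0.60 and -0.46 at stage 2 (mean -0.88, SD 0.41). Its female signals were 7.48, 7.66, 7.14 and 7.01, against 6.28, 6.40, 6.54 and 6.55 in males. Every stage 2 female stood above every stage 2 male, but the female of stage 1 replicate 2, at 7.78, was higher still.

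Myt01-014H10 gave -0.95, -1.23, -0.48 and -0.29 (mean -0.74, SD 0.43). Its female signals at stage 2 were 7.27, 7.68, 7.13 and 7.31, and no female of another stage exceeded 6.68. Its male signals at stage 2 were 6.32, 6.45, 6.65 and 7.02, and those of the other stages lay between 6.04 and 6.55. The stage 2 females thus stood apart from all other females. The male signal was above background on no array of stages 1, 2 and 3, so that no change in males can be read.

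**Figure D5:**
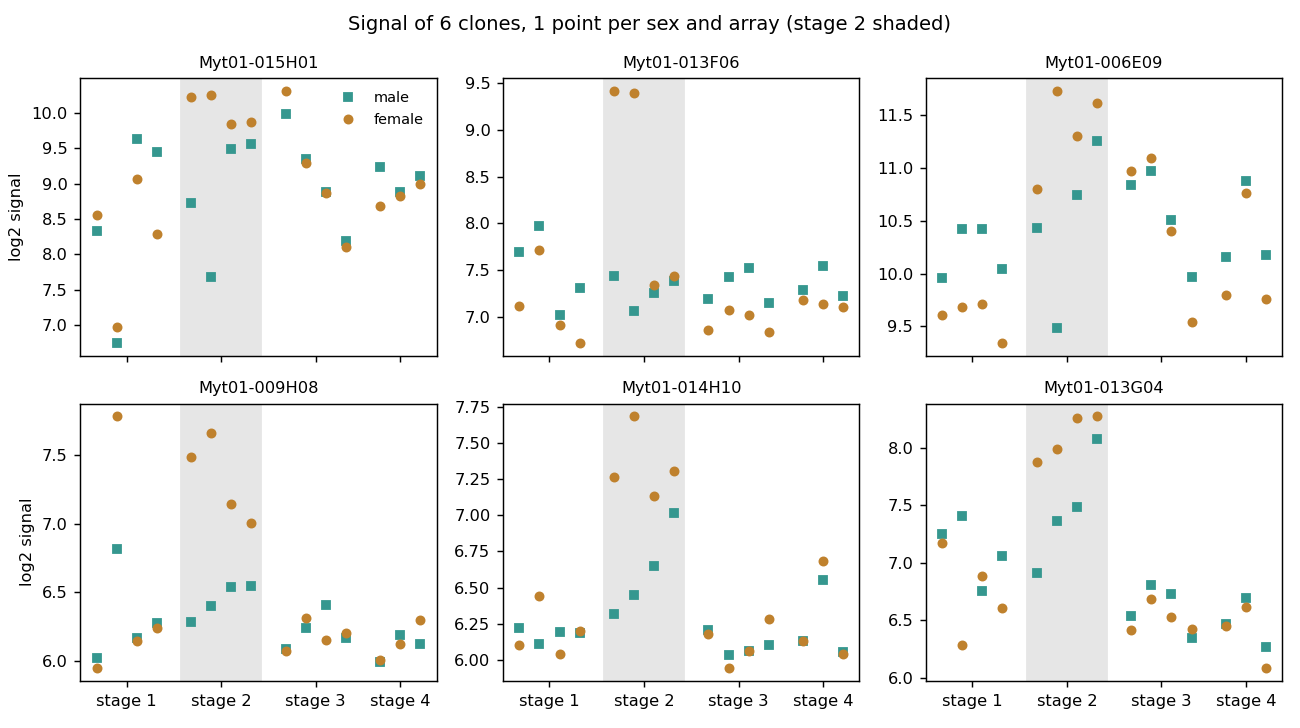
Log2 signal (vertical axis, scaled separately in each panel) of 6 clones in males (squares) and females (circles) on the arrays of 4 stages (horizontal axis), with stage 2 shaded. The upper clones differ between stage 2 arrays, as in Myt01-013F06 with females at 9.42 and 9.39 against 7.35 and 7.43. All 6 clones have each stage 2 female above the stage 2 male of the same array.

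For 7 of the 36 clones the male signal was not above background on any stage 2 array. In 2 of them the female signal was above background on all 4, and females were then higher by a lower bound only. The male side was set, on each array, at the higher of its own signal and the lowest male signal of a clone above background. Since background was local to each spot, this bound is approximate. By this bound females were at least about 1.51-fold higher in Myt01-009H08 and at least about 1.44-fold higher in Myt01-014H10. In the other 5 the female signal was above background on 3 of 4 arrays (Myt01-012A08 and Myt01-017C08) or on 2 of 4 (Myt01-005E01, Myt01-009G01 and Myt01-013A05), and no fold is given. The female signal was above background on all 4 stage 2 arrays in 31 clones, the male signal in 12, and both on all 16 arrays in 7.

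Fitted across all 1920 clones with limma, 15 were lower in males at stage 2 at an adjusted p under 0.05 (0.781% of all clones), and 6 of these were among the 36. None of the 36 was called higher in males (0.885% of all clones). The 6 were Myt01-007F09, Myt01-009H08, Myt01-012A08, Myt01-012F11, Myt01-014H10 and Myt01-016F11, each below 0 on all 4 arrays and with an SD of 0.28 to 0.48. By the study's criterion, a B statistic over 0, it was 9 clones (0.469%) and 5 of the 36, and 14 clones were higher in males. Since the rule used this contrast, the counts describe the choice and test nothing. For the second stage in its list, which it calls ripe there, the study reported a minority of the differing genes as upregulated. Here 17 clones were higher and 15 lower in males at an adjusted p under 0.05 in limma, but the balance depended on the processing. It was 17 and 25 with print-tip loess, 14 and 18 with scaling between arrays and 8 and 11 without background correction. Without stage 2 replicate 4 it was 12 and 29, and without replicate 1 it was 32 and 9. Why the direction over all clones differs from the study was not tested. Of the 36, 0 were called without stage 2 replicate 2, 4 without replicate 1, 1 without replicate 3 and 12 without replicate 4, and 10 were called without stage 1 replicate 2. None was called without dim clones, which left 26 of the 36. In Myt01-009H08, Myt01-012A08 and Myt01-014H10 the male signal was above background on no stage 2 array. In Myt01-007F09, Myt01-012F11 and Myt01-016F11 it was above background on 2 of 4. No clone was called by limma (204 at an unadjusted p under 0.05) when the arrays of a stage and dye orientation were taken as a random block.

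The rule also bounded stages 1 and 3, with more room above 0 than below, and removed clones with large differences there, so that nothing is read from the signs and calls of these stages. The stage 1 ratio was above 0 in 28 of 36, and 1 clone, Myt01-016A12, was called higher in males (4.48% of all clones). Its stage 1 ratios were 0.13, 0.95, 0.31 and 0.55, all above 0, and its stage 2 ratios were -0.74, -0.64, -0.39 and -0.20, all below. None was called lower in males at stage 1 (0.469% of all clones). At stage 3 the ratio was above 0 in 18 and below 0 in 18, and none was called lower (0.104% of all clones) or higher (0.99%) in males. The ratio depended on the stage by the moderated F test in 5 of the 36, Myt01-012A08, Myt01-012F11, Myt01-015E08, Myt01-016A12 and Myt01-016F11 (5.1% of all clones), a count that again holds the contrast of the rule.

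Stage 4, which the rule did not use, showed no difference between the sexes for these clones that passed the test. None of the 36 was called in either direction (0% of all clones), with limma's smallest adjusted p among them at 1.00 and at 0.170 over all clones. At an unadjusted p under 0.05, none of the 36 passed, against 79 of all clones (4.11%). By the B statistic it was none of the 36 and 4 of all clones (0.208%). Over all clones, stage 4 replicates 2 and 4 correlated with stage 3 replicates 1 to 3 at r = 0.74 to 0.89. The rule removed clones with large differences at stage 3, so that the stage 4 counts are not independent of the choice. Stage 4 arrays of opposite dye orientation correlated at r = -0.15 to -0.11 over all clones. With such arrays and 3 replicates, the absence of calls does not show that the sexes were equal.

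The stage 4 ratio was above 0 in 23 of the 36 clones (41.4% of all clones), above 0 in all 3 replicates in 9 (12.7% of all clones) and below 0 in all 3 in 1 (13.9%). By the value table the highest were Myt01-016H12 and Myt01-005D11. Myt01-016H12 gave 0.00, 1.00 and 0.11 on replicate 1, the average of replicates 2 and 4, and replicate 3 (mean 0.37, SD 0.55). Myt01-005D11 gave 0.08, 0.82 and 0.14 (mean 0.35, SD 0.41). In both the averaged replicate carried the value.

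The lowest by the value table were Myt01-001D01, with 0.05, -1.09 and 0.27 (mean -0.26, SD 0.73), and Myt01-016F04, with 0.12, -0.85 and -0.04 (mean -0.25, SD 0.52). Here too the averaged replicate, the only one of stage 4 with males in Cy3, stood apart. Without it both means were above 0, at 0.16 and 0.042. The value table counts stage 4 replicates 2 and 4 separately, so that this ranking gives them more weight. In the fit Myt01-016C08 was the lowest (-0.29), with -0.72, 0.69 and -0.84 in the same order, and there the averaged replicate was the highest.

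The mean signal of both sexes also differed at stage 2. It is measured on the same spots as the ratio, so that it is no independent measure of these clones, and it is given as counts. Against the mean of the other stages it was higher at stage 2 in 33 of the 36, by a median of 0.24 on the log2 scale (all clones -0.03). It passed limma's test in 8, all of them higher (5% of all clones passed as higher), and in none as lower (3.12%). By the moderated F test of the 4 stages it was 8 of the 36, against 13.9% of all clones. These counts rested on dim clones and single arrays. Without dim clones, which left 26 of the 36 and 767 clones in all, 2 of the 26 passed at stage 2, as higher. Of the 767 clones, 132 passed there, 72 of them as higher. In the F test 3 of the 26 passed, and 206 of the 767. Without stage 2 replicate 1, 5 of the 36 passed at stage 2 (90 of all 1920 clones). In the F test 5 passed without stage 2 replicate 3 (218 of all clones) and 13 without stage 3 replicate 4 (334 of all clones).

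The 8 that passed as higher were Myt01-016F11 (1.16 on the log2 scale, SE 0.20), Myt01-013G04 (1.14, SE 0.14), Myt01-016H12 (0.90, SE 0.21), Myt01-014H10 (0.79, SE 0.11), Myt01-018A03 (0.78, SE 0.17), Myt01-016F04 (0.64, SE 0.13), Myt01-009H08 (0.63, SE 0.18) and Myt01-006F05 (0.55, SE 0.14). These differences are measured values, and most include signals that were not above background. The female signal was above background on all 4 stage 2 arrays in each of the 8, but in Myt01-016F11 neither sex was on any array of stages 1, 3 and 4, in Myt01-014H10 neither was at stages 1 and 3, and in Myt01-009H08 males were at no stage. Myt01-016F04 was above background in both sexes on all 16 arrays. The 3 clones with the deepest ratios were not among them.

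Myt01-013G04 had female signals of 7.88, 7.99, 8.26 and 8.28 at stage 2, and no female of another stage exceeded 7.18. Its male signals were 6.91, 7.37, 7.48 and 8.08, which overlapped the stage 1 males at 7.25, 7.41, 6.75 and 7.06. Its ratios of -0.97, -0.63, -0.77 and -0.20 overlapped between the dye orientations, with replicate 3 below replicate 2.

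Myt01-016F11 had female signals of 6.74, 7.59, 8.46 and 7.44 and male signals of 6.52, 6.53, 7.84 and 7.14 at stage 2. Females of the other stages lay between 5.90 and 6.30, none of them above background. Its ratios were -0.23, -1.06, -0.62 and -0.31, and their mean was -0.65 with males in Cy5 and -0.47 with males in Cy3. It was 1 of the 4 clones that reached -0.45 in both orientations, with Myt01-006E09, Myt01-009H08 and Myt01-013G04.

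Outside stage 2 the 36 clones did not share 1 profile. The rule gave each of them a low stage 2 ratio, so that a higher correlation with stage 2 included is partly built in. Pairs of other clones were not correlated for comparison. Over the 15 replicates, the 630 pairs of clones had a median correlation of ratios of 0.637, and over the 11 replicates outside stage 2 it was 0.0916 (range -0.894 to 0.960). The pairs most alike there were Myt01-016C08 with Myt01-017C08 (r = 0.960) and Myt01-002E01 with Myt01-008C07 (r = 0.926), named after their values were seen. The ratio of Myt01-016C08 was 0.96, 0.66, 0.77 and -0.25 at stage 3 and -0.72, 0.69 and -0.84 at stage 4.

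That profile, with stage 3 replicates 1 to 3 and the averaged stage 4 replicate on 1 side, recurred with either sign. On those 4, the ratio was above 0 throughout in 9 of the clones (21.4% of all clones) and below 0 throughout in 8 (21.6% of all clones), so that the shares were near those of all clones. Over all clones, too, these arrays correlated with each other, at r = 0.651 to 0.912 apart from the averaged pair. The mean was 0.77 there and -0.60 on the other arrays of both stages in Myt01-016C08, and 0.67 and -0.36 in Myt01-017C08. It was -0.81 and 0.10 in Myt01-016F04, and -0.59 and 0.46 in Myt01-016G09.

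The clones lay on 16 of the 20 plates of 96. Plate 016 held 6 and plates 013 and 015 held 4 each, whereas plates 003, 004, 019 and 020 held none. By well, column 1 held 7 of the 36 and column 2 none, at 160 clones each. Their spots lay in 15 of the 16 print-tip blocks.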

How the data were processed

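The members and lists were chosen with earlier results of these data known. The deposited scanner files hold, for each spot, foreground and local background intensity in both channels on a linear scale, not normalised by the authors, who used an array scanner and image software. The value table deposited by the authors gives, per spot, a log2 ratio of female over male made after an offset background correction and loess in limma (version not given in the sources used here). It was used to choose the clones, to rank them at stage 4 and as an alternative. It correlated with the ratios computed here at r = 0.930 to 1.00, and its column medians lay between -0.0207 and 0.0110.

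From the intensities, background was corrected with normexp (offset 50), arrays were normalised by loess with blank and alignment spots left out of the fit, signals were set to 1 scale by quantiles of the mean signal (Aquantile), and the spots of each clone were averaged (limma 3.58.1, R 4.3.3). A model of 4 stage coefficients was fitted over 15 replicates with lmFit and eBayes, two-sided, with Benjamini-Hochberg adjustment over 1920 clones at 0.05. The scripts were tested on simulated data. The methods name 4 biological replicates from single individuals, and the number of arrays limits the precision. Replicate numbers did not pair the arrays.

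Clones named were the 10 lowest at stage 2, 3 on either side of the threshold, the 5 of highest signal, up to 5 per test called and direction, and the 2 highest and 2 lowest at stage 4; others named, and those in counts, were chosen after their values were seen. Lists of marker genes could not be used, since the clones carry no gene names here.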

Additional observations from a re-analysis of the deposited data

Results flagged for a closer look

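Of 69 groups of 4 replicate ratios examined among the named clones, 7 held 1 array far from the others by Dixon's criterion. The groups come from the stages that chose the clones and share arrays, so that this count cannot be set against chance. Of these, 2 lay on stage 2 replicate 2, which had males in Cy5. There, Myt01-006E09 gave a log2 ratio of -2.25 against -0.56 to -0.36 on the other stage 2 arrays, and Myt01-006F05 gave -1.54 against -0.34 to -0.16.

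At stage 1, Myt01-006E09 gave 0.36 on replicate 1 against 0.70 to 0.75, and Myt01-018A07 gave 0.31 on the same array against 0.69 to 0.74. Myt01-009H08 gave -0.96 on stage 1 replicate 2 against 0.02 to 0.08. At stage 3, Myt01-013D01 gave 0.34 on replicate 1 against -0.17 to -0.11, and Myt01-006F05 gave -0.21 on replicate 4 against 0.62 to 0.68.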

How the results depend on the processing

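The median stage 2 log2 ratio of the 36 clones, -0.60, was -1.01 to -0.25 under 29 alternatives and -0.74 to -0.41 with 1 stage 2 array left out. The rule chose the clones by this ratio, so that a median below 0 tests nothing. Leaving out an array of another stage, blocks or array weights could not move this median. The stage 2 ratios of 23 named clones gave 614 values under the alternatives other than the split by dye, with 0 of them above 0 and 5 moved by more than the spread. These ratios chose the clones too, and their sign is a description. With males in Cy3 alone, 4 of the 36 were above 0, Myt01-010B03 (0.049) among them. The 32 clones called at stage 2 (6 of the 36) became 19 without background correction (4 of the 36), 3 with plain subtraction (0), 105 with median centring (21, with 89 of the 105 lower in males against 15 of 32), 5 without dim clones (0), 17 with array weights (5) and 0 with a random block for the dye orientation within a stage (204 at an unadjusted p under 0.05 in limma). With 1 array left out they numbered 1 to 41 (0 to 12 of the 36): leaving out stage 2 replicate 2 gave 1 and replicate 3 gave 6, leaving out stage 1 replicate 4 gave 18, leaving out stage 3 replicates 1, 2 and 3 in turn gave 18, 20 and 18, and leaving out stage 4 replicate 1 gave 21. The cause was not tested.

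The count at stage 4, 0, became 9 with plain subtraction, 9 with median centring, 4 with scaling between arrays, 4 without dim clones, 12 with all 16 arrays, 32 with array weights and 4 by the B statistic, none of them among the 36, and stayed between 0 and 0 with 1 array left out. The stage 4 ratio of Myt01-001D01 turned from -0.26 to 0.072 with median centring, 0.16 without the averaged replicate and 0.12 with array weights, and that of Myt01-016F04 turned from -0.25 to 0.063 with median centring and 0.042 without the averaged replicate. The mean signal changed with stage in 267 clones and in 416 with array weights (208 to 334 with 1 array left out). At stage 2 it differed in 156 and in 322 with array weights (90 to 168 with 1 array left out, 90 without stage 2 replicate 1 and 98 without stage 2 replicate 4). The number of clones chosen, 36, was 14 to 62 with a stage 2 array left out, 102 on Cy5-male arrays alone and 16 on Cy3-male arrays alone, the last 2 alternatives being chosen after seeing the data.

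Not every pair of arrays with the same replicate number deviated together (r from -0.275 to 0.00033, -0.103 to 0.406, -0.405 to 0.244 and -0.591 to 0.101 for numbers 1 to 4), so that the numbers only name the arrays. With the replicate number as a block, 27 clones were called at stage 2 (6 of the 36), 0 at stage 4, 233 for mean signal over stages and 150 for mean signal at stage 2 (9 of the 36).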
